A study of Arabidopsis thaliana with 6 samples.

Results

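The subject is the transcriptome of stage 15 flowers of wild-type Arabidopsis thaliana, accession Columbia, with no transgene, as read on 3 of the 6 arrays of the series. The other 3 arrays held flowers of the same stage that overexpressed miR159a and were not analysed here. Each array took the total RNA of 1 sample, and the wild-type arrays are told apart by the letters a, b and c. Nothing in the labels ties a letter to its own plants, culture or extraction, so any spread between the arrays may be technical.

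The array was a one-colour design with several short oligonucleotides for each transcript, summarised by the submitters into 1 signal per probe set. Of 22746 probe sets that are not controls, 13513 are tied to a single gene by the platform annotation, 503 to several genes and 8730 to none. The 100 single-gene probe sets with the highest mean signal over the 3 arrays, all of different genes, are the members described here. The ranking used the level itself, so that these probe sets are bright is the rule and not a result. A signal depends on the oligonucleotides as well as on the transcript, so an order of probe sets by signal is an order of brightness and not of transcript abundance.

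At stage 15 an Arabidopsis flower is open and fully grown, and its long stigma stands above the anthers, whose mature pollen has been released. Sepals, the carpel wall and filaments hold chloroplasts, in which genes of the plastid's own genome and genes of the nucleus together supply the photosynthetic complexes. Nectaries at the base of the stamens secrete sugar, petals make flavonols and anthocyanins, and all floral organs make antimicrobial peptides. Mature pollen carries its own set of transcripts for the pollen tube, whereas the tapetum, which fed the young pollen, has degenerated by then.

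Array a stood apart from b and c. Over all probe sets the Pearson correlation of log2(signal + 16) was 0.970 between a and b, 0.970 between a and c and 0.984 between b and c, and over the 100 members it was 0.698, 0.651 and 0.895. These are correlations across probe sets, which are not independent replicates. The median signal was 97.0 on array a, 92.2 on b and 87.3 on c, and the mean after the top and bottom 2% were left out was 200.01 on a, 200.01 on b and 200.02 on c. The ratio of 5' to 3' signal on control probe sets, a reading of how far the labelled RNA reached towards its start, was 0.656, 0.326 and 0.463 for actin on arrays a, b and c. It was 0.807, 0.493 and 0.501 for ubiquitin and 0.801, 0.694 and 0.831 for GAPDH. Array a had the highest ratio of the 3 for actin and ubiquitin but not for GAPDH, and the part of RNA quality in the results below was not tested. Shares over the whole array are given below for the 17063 probe sets with a mean signal at or above the 25th percentile, called the filter.

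The members spanned mean signals of 6649 to 2396 and lay in places 7 to 306 among all probe sets that are not controls, all at or above the 98.7th percentile. Of the 100 brightest probe sets of any kind, 28 had a single gene, 7 had several and 65 had none in the annotation, whereas 59.4% of all probe sets had a single gene. The members held 5.39% of the summed signal on array a, 5.97% on b and 6.68% on c. Just inside the limit lay AT2G43030, at 1695, 2582 and 2911 on arrays a, b and c (mean 2396), and just outside lay the chloroplast ribosomal protein gene rps4, at 1456, 2894 and 2831 (mean 2394). Their ranges overlapped almost entirely.

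Of the 100 members, 29 carry a descriptive symbol or synonym and 71 only a locus number, for which no role is given here. Among the 29 named members, 9 encode nuclear photosynthesis proteins and 7 chloroplast-encoded subunits of photosynthetic complexes. The remaining named members were 1 chloroplast ribosomal protein gene, 4 genes of central metabolism, 2 of defence peptides, 2 of cold and drought proteins, 1 of a protease, 1 of a thiol reductase, 1 of a tubulin, and AILP1. These groups were set by hand from the symbols after the values were seen, so their counts are a description. They were not counted over all single-gene probe sets. As 71 members have no role here, which group is the largest among the members cannot be told.

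**Figure D1:**
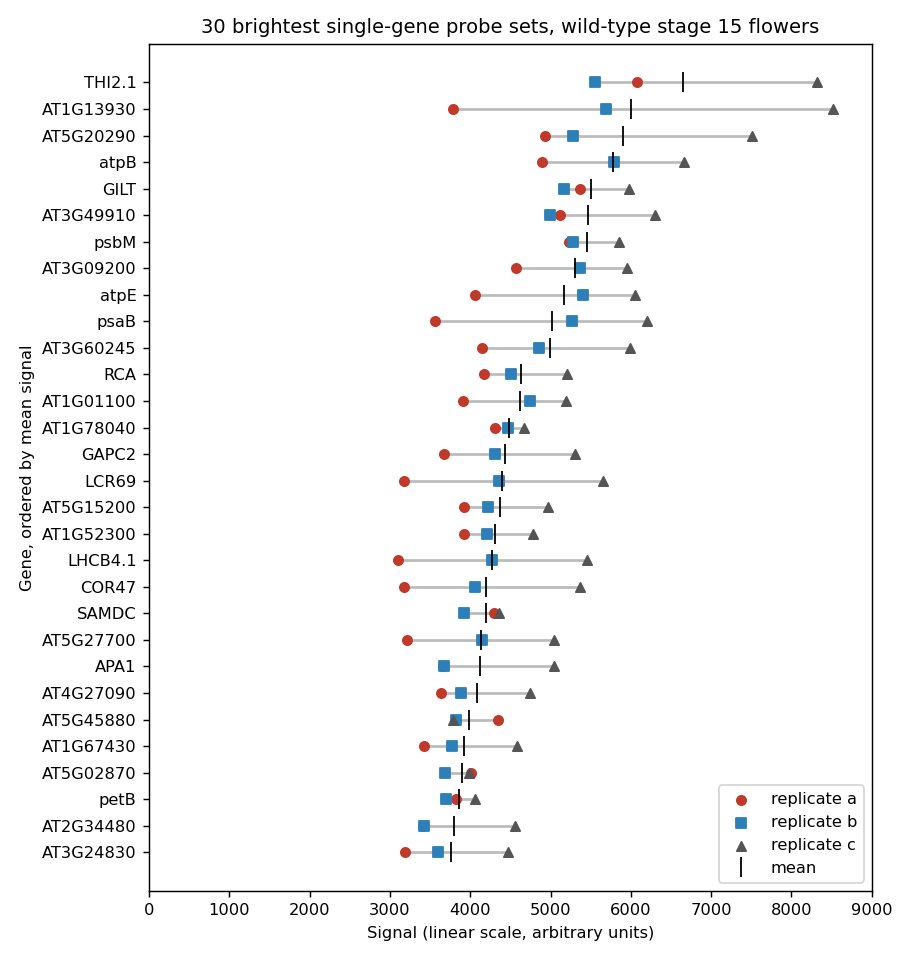
Signal of the 30 brightest single-gene probe sets on the 3 wild-type arrays (horizontal axis, linear scale in arbitrary units, starting at 0), ordered by mean signal from top to bottom. Red circles are replicate a, blue squares b, grey triangles c, and black ticks the mean. THI2.1 leads with a mean of 6649, and for most genes the triangle of replicate c lies farthest to the right.

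The brightest member was THI2.1 on chromosome 1, which encodes a thionin, a small cysteine-rich peptide that is toxic to fungi and known from flowers and young siliques. Its signals were 6071.5, 5551 and 8324.5 on arrays a, b and c, a mean of 6649 ± 1474 (SD, n = 3 for this and all later values of this form). Array c was well above a and b, whose values lay close together. LCR69 on chromosome 2, also named PDF2.2, encodes a plant defensin and gave 3174.5, 4363 and 5649, a mean of 4396 ± 1238. Its lowest array was a and its highest c, 1.78-fold apart. PDF1.2, a jasmonate-induced defensin gene commonly used as a reporter of defence against fungi, was near the floor at 5.9, 4.3 and 1, the 8.07th percentile. It was the 1 measured gene of 13 on the list of jasmonate and glucosinolate defence, so jasmonate-induced genes as a set could not be judged.

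GILT on chromosome 4, which encodes a homologue of a lysosomal thiol reductase of animals, was the fifth member at 5366, 5162 and 5972, with a coefficient of variation (SD over mean) of 7.66%. The aspartic protease gene APA1 gave 3657, 3672.5 and 5046, and S-adenosylmethionine decarboxylase, SAMDC, which feeds polyamine synthesis, gave 4301, 3922 and 4356. The SAMDC arrays lay within 1.11-fold of each other, whereas array c of APA1 stood above the other two. Among enzymes of glycolysis, the cytosolic glyceraldehyde-3-phosphate dehydrogenase gene GAPC2 had 3678, 4304 and 5304 and the triosephosphate isomerase gene TPI had 2415.5, 3497 and 4304. Both were lowest on array a and highest on c. The gene of the respiratory electron carrier cytochrome c, CYTC-1, gave 2493, 2819 and 3078, and the alpha-tubulin gene TUA6 gave 2536, 2709 and 3408.

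Members with a locus number alone included the second and the third of the order, AT1G13930 at 3784, 5684 and 8519 and AT5G20290 at 4926, 5276 and 7512.5. AT1G13930 had the largest coefficient of variation of the 100 members, 39.7%, and AT3G62870, at 2822, 2903 and 2949, had the smallest, 2.22%. Of the 30 brightest members, 16 have a locus number alone, among them AT3G49910 at 5115, 4997 and 6304, AT1G78040 at 4311, 4469 and 4674 and AT5G02870 at 4007, 3685.5 and 3982. The last of these varied by 1.09-fold and AT1G78040 by 1.08-fold, against 1.36-fold for the median member.

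All nuclear photosynthesis genes of the list that had a probe set of their own were bright. Of the 48 genes on the photosynthesis list, 9 had a single-gene probe set; 6 of these were members and all 9 lay among the 300 brightest named probe sets. Their median percentile among all probe sets was 98.8. RCA, the activase that frees the carbon-fixing enzyme Rubisco from inhibitors, led at 4174.5, 4507 and 5205 (mean 4629 ± 526). LHCB4.1, a minor antenna protein of photosystem II, gave 3099, 4276.5 and 5449.9 and its close relative LHCB4.2 1815.5, 3016 and 2641. How far the probes tell these close relatives apart was not examined.

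The photosystem I subunit gene PSAE-1 gave 2098, 3547.5 and 2893. In photosystem II, the subunit gene PSBW gave 2094.5, 3293 and 3012, and PSBY gave 2159, 2460.0 and 2930.2. Outside the members, PSAN of photosystem I gave 1527, 2244 and 2519. Carbon fixation was read by SBPASE, at 1543, 2062 and 1849.7, and PRK, at 1609.7, 1779.7 and 1906.5, 2 enzymes that regenerate the carbon acceptor in the Calvin cycle. Array a was the lowest for all 9 genes of the list, and for 8 of the 9 after quantile normalisation, which gives the 3 arrays the same distribution. It was the lowest for 34.9% of the probe sets above the filter on the deposited scale and for 39.9% after quantile normalisation. Of the 100 members, it was the lowest for 80 on the deposited scale and for 53 after quantile normalisation. A low array a was thus common among bright probe sets. The members include 6 of the 9 list genes, and PSAN, SBPASE and PRK are dimmer than every member. Arrays b and c changed places from gene to gene. Further nuclear members of this kind were not on the list. ATPC1, the gamma subunit of the chloroplast ATP synthase, gave 2645, 3284 and 3587. AT4G01150, which has the synonym CURVATURE THYLAKOID 1A and shapes thylakoid edges, gave 2620.4, 3542 and 4009. AT1G74470, geranylgeranyl reductase of the chlorophyll pathway, gave 2385, 3221 and 3453.

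The chloroplast's own genes supplied 8 of the 100 members and 23 of the 300 brightest named probe sets, whereas they were 69 of all 13513 single-gene probe sets, or 0.511%. The 92 nuclear members lay on chromosome 1 in 19 cases, chromosome 2 in 17, chromosome 3 in 27, chromosome 4 in 11 and chromosome 5 in 18. The members atpB and atpE, subunits of the ATP synthase that lie next to each other in 1 transcription unit, were each lowest on a and highest on c: atpB gave 4889, 5795 and 6668, and atpE gave 4053.5, 5403 and 6053. The small subunit psbM of photosystem II gave 5230.5, 5285 and 5857.5, psaB of the photosystem I core gave 3564, 5272 and 6205, and cytochrome b6 gene petB gave 3820.2, 3703 and 4059. Values of psbM and petB were close on all 3 arrays, within 1.12-fold and 1.10-fold, and psaB was 1.74-fold higher on c than on a. The other chloroplast members were psbF of photosystem II at 2199.6, 3258 and 3083, the ribosomal protein gene rpl16 at 2028, 3293 and 3088 and the inner antenna gene psbC at 1736, 2947 and 3083, each lowest on array a.

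The 69 chloroplast genes did not lie together. Their percentiles ran from 19.2 to 99.9 with a median of 92.9, and 50 of the 69 lay in the upper 25% of all probe sets. The 15 psb genes of photosystem II had a median percentile of 94.8, the 6 atp genes of the ATP synthase 94.8, the 5 psa genes of photosystem I 93.7, the 7 rpl genes of the large ribosomal subunit 96.3 and the 10 ndh genes of the NADH dehydrogenase-like complex 69.3. The dimmest was ndhF at 25.5, 6.5 and 5.3. The genes psbA and rbcL, of the photosystem II core and of the large Rubisco subunit, are known for their very abundant messages in green tissue. Here psbA gave 897, 864 and 915, the 94.0th percentile, and rbcL gave 186, 289.8 and 293, the 74.9th percentile. As a signal depends on the oligonucleotides too, these places are not a reading of how abundant the messages were.

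**Figure D2:**
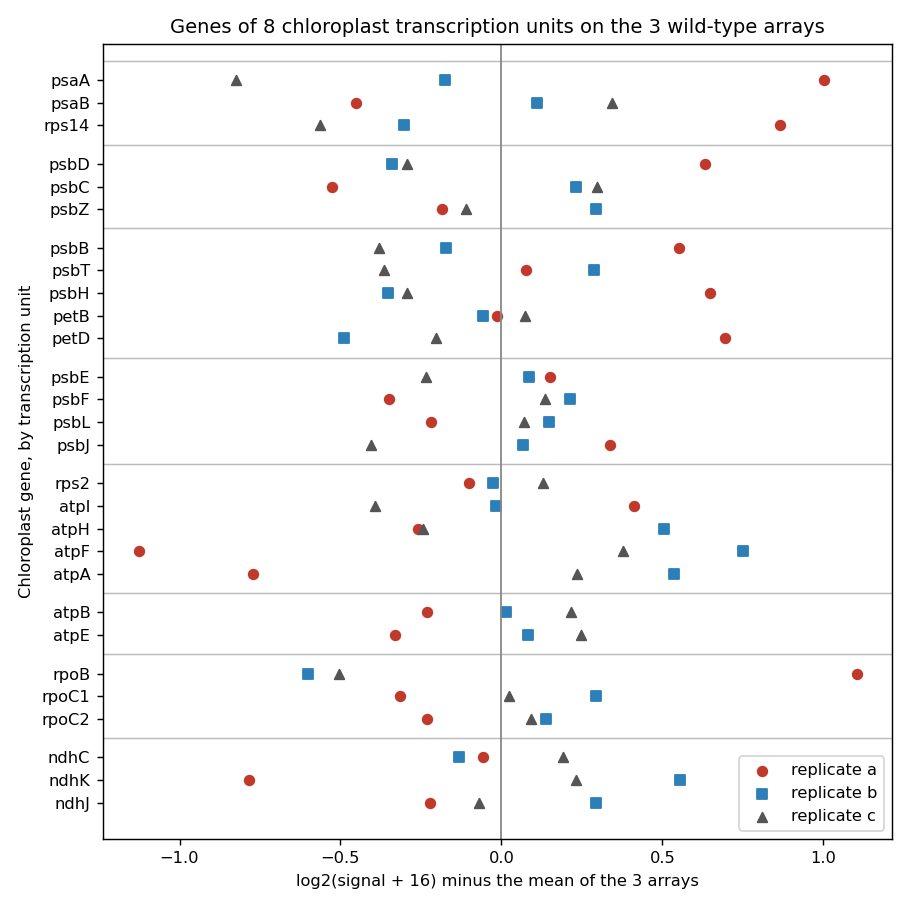
Difference of each array from the mean of the 3 wild-type arrays in log2(signal + 16) (horizontal axis) for 28 genes of 8 chloroplast transcription units (rows, separated by grey lines). Red circles are replicate a, blue squares b and grey triangles c. Within 5 units the red circle is farthest to the right for some genes and farthest to the left for others, as for psaA and psaB.

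Chloroplast genes are transcribed in groups, so genes of 1 unit share a primary transcript. The 28 genes of 8 well-known units were examined after the values had been seen. In 5 of the 8 units at least 1 gene was highest on array a and at least 1 other was lowest on it, and the same 5 units did so after quantile normalisation. Over the probe sets above the filter, 41.5% were highest on a and 34.9% were lowest on it. How often unrelated genes in groups of this size would mix in this way was not computed, so the count is a description. For the photosystem I unit, psaA gave 1502, 654 and 411.5 and rps14 gave 90.6, 31.4 and 23.6, both highest on a, whereas psaB, which lies between them, was lowest on a at the values above. For the photosystem II reaction centre unit, psbD gave 764, 381 and 394, whereas psbC, whose coding sequence overlaps it, was lowest on a. In the unit of the RNA polymerase, rpoB gave 87.8, 15.9 and 18.1, with b and c near the pseudocount, whereas rpoC1 gave 662, 1019 and 841. In the ATP synthase unit, atpF gave 291, 1113 and 855 and atpA 529.7, 1335 and 1078, with a lowest, whereas atpI gave 64.1, 43.5 and 29.9, with a highest.

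Over all 3 arrays 21 of the 69 chloroplast genes differed by 2-fold or more, where 12.7% of the probe sets above the filter did so. Between b and c alone 2 of the 69 did, where 3.07% did. Of these 21, 14 were highest on a and 6 were lowest on a, where 41.5% and 34.9% of the probe sets above the filter were. The same shares among all probe sets that differed by 2-fold were not computed. The median coefficient of variation of the 69 genes was 24.2%.

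Genes with roles in cold and drought were among the bright probe sets of these flowers, which the labels do not describe as stressed. COR47 on chromosome 1, a dehydrin that protects membranes and proteins in drying cells, gave 3179, 4058 and 5363, a mean of 4200.1 ± 1099. AT1G54410, with the synonym HIRD11, is another dehydrin gene and gave 1326, 2809 and 3110.4. COR15A, whose product protects chloroplast membranes against freezing, lay outside the members but among the 300 brightest, at 1086, 1336 and 2476. Its relative COR15B gave 120.0, 929 and 1497, and the dehydrin LTI30 gave 28.1, 190.0 and 67.3. All 4 measured genes of 12 on a list of cold response genes, COR47, COR15A, COR15B and LTI30, were lowest on array a, also after quantile normalisation, where 34.9% and 39.9% of the probe sets above the filter were. The list was made after the values were seen. Among the 6 genes of cold and drought in the 300 brightest, 4 were lowest on a, while SRC2, at 1589.7, 2238 and 1505, and DI19 were lowest on c. Of the 100 members, 80 were lowest on a on the deposited scale and 53 after quantile normalisation. A low array a was thus common among bright probe sets and not particular to these 6 genes. The 1 measured clock gene of 21, GI, gave 298, 455 and 494, and was lowest on a too. Handling was read by 2 of 7 genes, of which the zinc-finger gene STZ gave 232, 117 and 116 and the heat shock protein gene ATHSP22.0 22.3, 26.5 and 25.7.

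The floral organs differed in how far their markers could be read. The nectary was represented by SWEET9, the sugar exporter of nectaries without which no nectar is made. It gave 2038, 1459.7 and 2196, was number 146 among the named probe sets and lay at the 98.0th percentile. It was the only one of 4 nectary genes with a single-gene probe set. The stylar tissue was represented by ARPN, a plantacyanin that acts in the path of the pollen tube, at 1519.5, 1465 and 1722.5. AT5G44630, the 1 measured gene of 4 on the list of floral scent terpenes, gave 2082, 1533 and 1750.2 at the 97.8th percentile, and had no further annotation here. The 3 arrays of SWEET9 lay within 1.5-fold and those of ARPN within 1.18-fold.

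Carpel and ovule regulators were of middle brightness, with 7 of 15 genes measured and a median percentile of 48.5. The highest was ALC, a factor of the zone where the fruit opens, at 397, 309 and 320.1. INO, which is needed for the outer integument of the ovule, gave 158, 128 and 137. SPT, a factor of the transmitting tract, gave 106, 88.1 and 113, and NGA1, which acts in style growth, 84.1, 81.2 and 97.2. The spread of the 7 was small, with a median coefficient of variation of 12.6%. Cell division was read by AUR1 at 309, 224 and 254 and AUR2 at 224, 151 and 160.3, 2 mitotic kinases, out of 6 genes.

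Flavonoid genes had a median percentile of 76.1 over 5 of 11 genes. UGT78D1, a flavonol glycosyltransferase, gave 588.5, 366 and 487, and CHIL, which raises the output of the first committed enzyme, 694, 279.5 and 405. UF3GT gave 311, 189.8 and 305 and UGT78D2 337, 156 and 292, both glycosyltransferases. The anthocyanin enzyme gene DFR gave 109.9, 62.7 and 91.8. All 5 were highest on array a, as 41.5% of the probe sets above the filter were, and lowest on b, as 29.3% were. After quantile normalisation 4 of the 5 were highest on a, with UF3GT then highest on c, and all 5 remained lowest on b.

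**Figure D3:**
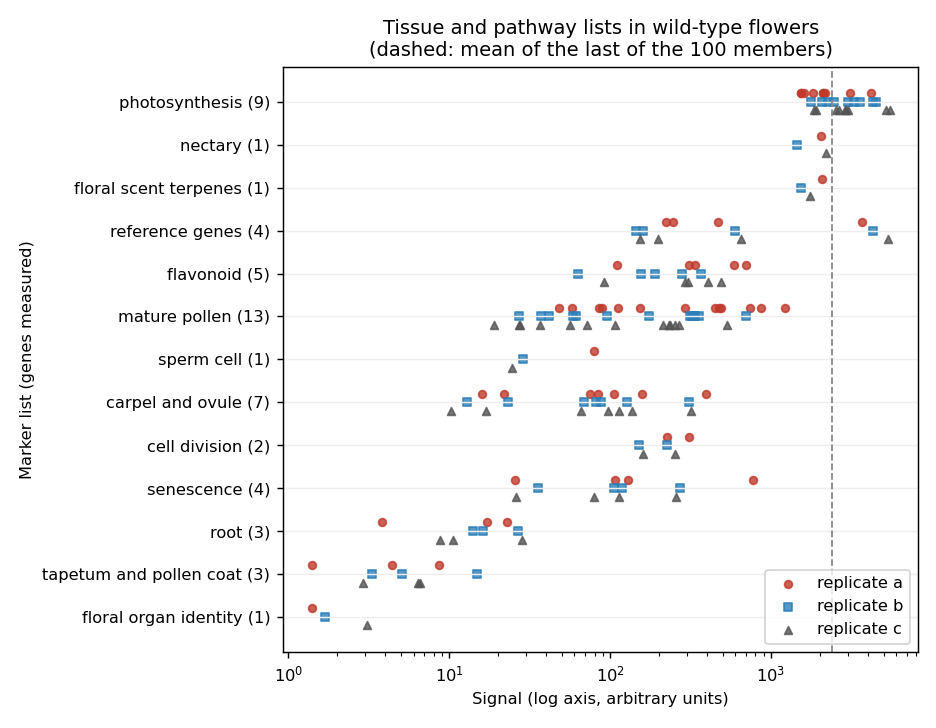
Signals on the 3 wild-type arrays (horizontal axis, log scale in arbitrary units) of every measured gene of 13 marker lists (rows, with the number of genes measured). Red circles are replicate a, blue squares b and grey triangles c. The 9 photosynthesis genes lie on both sides of the dashed line at 2396, the mean of the last member, whereas tapetum, root and floral organ identity genes lie below 30.

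Transcripts of mature pollen were read on every array. Of 28 pollen genes, 13 had a single-gene probe set, with percentiles of 31.5 to 93.3 and a median of 67.4, and none was among the 300 brightest. The alpha-tubulin gene TUA1 led at 1212, 700.2 and 533, followed by AT1G49490 at 868, 358 and 253.5, AT3G19020 at 735, 321.5 and 266 and AT4G39110 at 472, 339 and 235. In the receptor kinase pair that keeps the growing pollen tube intact, ANX2 gave 487, 313 and 213.5 and ANX1 85.4, 41.6 and 27.3. The pollen actin gene ACT12 gave 112, 61.4 and 36.5. All 13 genes were highest on array a and lowest on c, and after quantile normalisation 13 were highest on a and 12 lowest on c. Their summed signal was 5058 on a, 2857 on b and 2077 on c. The sperm cell histone gene MGH3, 1 of 2 genes measured, showed the same order at 79.3, 28.6 and 24.7.

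Array a was the highest of the 3 for 41.5% of the probe sets above the filter, and c was the lowest for 35.8%. In RNA of a whole flower, more pollen and more of these transcripts per pollen grain cannot be told apart. Neither can be told from a technical difference between the arrays. Among transcripts of the tapetum, 3 of 21 genes were measured and all were dim. AMS, a regulator of the tapetum, gave 8.6, 14.9 and 2.9, AT5G07230 gave 4.4, 5.1 and 6.6 and AT1G75920 1.4, 3.3 and 6.4, and their median percentile was 10.6.

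Floral organ identity genes could hardly be judged, since 1 of 15 was measured. That gene, UFO, which acts in young floral meristems, gave 1.4, 1.7 and 3.1. Root genes, a tissue that a flower sample should lack, were dim. PYK10, an abundant root glucosidase gene, gave 17.2, 26.7 and 28.4, and the root hair expansin genes EXPA18 and EXPA7 were as low. EXPA18 gave 22.8, 16.3 and 10.6, and EXPA7 gave 3.8, 14.1 and 8.8; the median percentile of the 3 root genes, of 10 listed, was 22.7. Of 9 senescence genes, 4 were measured, among which SAG29 gave 778, 272 and 255 and WRKY53 128, 118 and 114. WRKY6 gave 107, 106 and 78.9 and SAG101 25.8, 35.8 and 26, so SAG29 alone differed by more than 2-fold, and it was highest on a. The lists of floral cutin, lipid transfer proteins, aquaporins and seed storage proteins had no gene with a single-gene probe set and were not read. The metallothionein gene MT1C, 1 of 5, gave 1041, 1054 and 779.

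Genes often used as references for flower RNA were far apart in brightness. Besides GAPC2, PEX4 gave 470.2, 597 and 646, AT4G34270 222.5, 159.9 and 198 and AT2G28390, named MON1, 246, 146 and 154. GAPC2 and PEX4 were lowest on array a, and the other two were highest on it. The 4 genes had a median coefficient of variation of 17.4%, close to the 16.5% of all probe sets above the filter.

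The order of neighbouring members was not resolved by 3 arrays. Of the 99 pairs of neighbours in the order, 0 were in the same order on all 3 arrays, and in 0 pairs did the ranges of the neighbours lie apart. Neighbours were set by the mean of these same arrays and lay close in it, so such an outcome was likely beforehand. Members far apart in the order could be told apart. The lowest array of THI2.1 was at 5551 and the highest of AT2G43030, the last member, at 2911. Membership was read apart from order. Of the 100 members, 73 were among the 100 brightest named probe sets on every array, with 81 on array a, 92 on b and 94 on c. When the ranking used only the other 2 arrays, 77 of the 100 brightest were also among the 100 brightest on a, 89 on b and 87 on c. On all 3 arrays 71 members were at or above the mean of the last member.

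**Figure D4:**
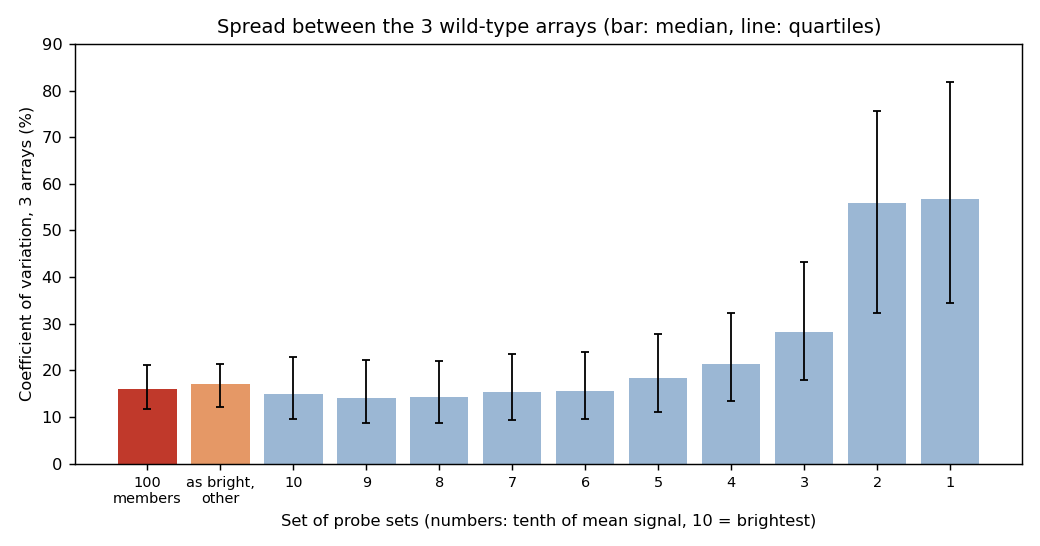
Coefficient of variation over the 3 wild-type arrays (vertical axis, percent, from 0), as the median (bar) with its quartiles (line), for the 100 members, for the 206 other probe sets as bright as they, and for 10 classes of equal size of all probe sets by mean signal, with 10 the brightest. The members stand at 15.9%, the brightest class at 14.9% and the dimmest at 56.8%.

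The median member had a coefficient of variation of 15.9%, with quartiles of 11.7% and 21.2%. The 206 unnamed or several-gene probe sets in the same range of brightness had 17.1%, and all probe sets above the filter 16.5%. Between the highest and the lowest array, 3 of the 100 members differed by 2-fold or more, and 5 after quantile normalisation. Of the 206 other probe sets as bright, 10 (4.85%) did so on the deposited scale. In the brightest of the 10 classes 8.92% did, and 12.7% of all probe sets above the filter, which include dimmer ones. A low share was thus common among bright probe sets. The 3 members on the deposited scale were AT1G13930, AT3G22240, at 1632, 3577 and 3598, and AT1G54410, all lowest on array a. Between b and c alone, 0 members reached 2-fold, where 3.07% of the probe sets above the filter did. The latter share was not computed for probe sets as bright.

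Array a was the lowest of the 3 for 80 members, against 34.9% of the probe sets above the filter, b for 16, against 29.3%, and c for 4, against 35.8%. Array c was the highest for 83 members, against 27.7%, b for 9, against 30.8%, and a for 8, against 41.5%. The median signal of the members was 2849 on a, 3285 on b and 3771 on c, and the highest signal of any probe set was 7148 on a, 7329 on b and 9805 on c. After quantile normalisation a was lowest for 53 members, against 39.9%, b for 23, against 31.2%, and c for 24, against 28.8%. Then a was highest for 28 members, against 36.8%, b for 35, against 30.6%, and c for 37, against 32.6%. The median coefficient of variation of the members was then 8.73%, whereas that of all probe sets above the filter was 16.1%.

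Among the 300 brightest, which reach down to a mean of 1332, 22 (7.33%) differed by 2-fold or more between the highest and lowest array. In the brightest of the 10 classes 8.92% did, and 12.7% of all probe sets above the filter. Between b and c 0 of the 300 did, where 3.07% of the probe sets above the filter did. Array a was lowest for 17 of the 22 and highest for 5. The largest ratio, 7.59, was that of AT3G62550, at 336.5, 2212 and 2554. CCL, whose messenger is known to be short-lived, was next at 594, 2919 and 3371, a ratio of 5.68. AT5G24490 gave 486, 2128 and 1402 and AT5G62360 739, 2411 and 3171. In these 4 genes array a was far below b and c. AT1G25275, AT3G11930, AT2G25510 and AT3G53990 had ratios of 2.36 to 3.16 in the same direction, as had clpP, the chloroplast gene of a protease subunit, at 1241, 3218 and 2251. AT5G47000, at 2361, 1334 and 994, was the only one of the 10 largest ratios with array a highest. Of other named genes, GR1, a glutathione reductase, was also highest on a, at 1968, 1204 and 906.

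The smallest ratio among the 300 brightest belonged to UBC28, a ubiquitin-conjugating enzyme gene, at 1740.1, 1738 and 1720.5, a coefficient of variation of 0.622%. DI19, a zinc-finger gene induced by drought, gave 2219, 2234 and 2168, and the beta-tubulin gene TUB9 1467, 1498 and 1553. The remaining 7 of the 10, all with a locus number alone, were AT3G62870, AT1G63770, AT1G62480, AT1G29470, AT1G16180, AT3G16080 and AT1G27400, with ratios of 1.04 to 1.07. After quantile normalisation the values of UBC28 were 1859.6, 1752 and 1611, a coefficient of variation of 7.16%. For TUB9 the coefficient of variation was 2.75% after quantile normalisation and 2.91% before.

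**Figure D5:**
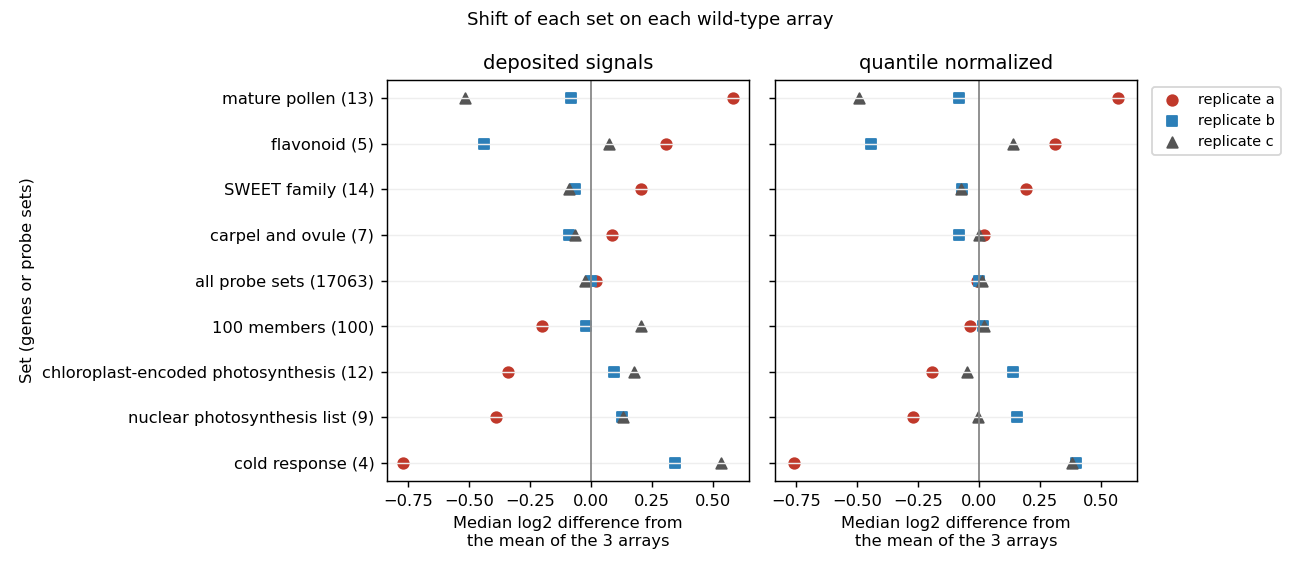
Median over each set of the difference of each array from the mean of the 3 wild-type arrays, in log2(signal + 16) (horizontal axis), for the deposited signals (left panel) and after quantile normalisation (right panel). Red circles are replicate a, blue squares b, grey triangles c, and the number of genes or probe sets is in brackets. In both panels the circle lies at the right for mature pollen and at the left for photosynthesis and cold response.

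The shifts of whole sets can be put on 1 scale as the median difference of log2(signal + 16) from the mean of the 3 arrays. Over all probe sets above the filter this was 0.02 on a, 0.00 on b and -0.02 on c. For the photosynthesis list it was -0.39 on a, 0.13 on b and 0.13 on c, and for the 12 chloroplast photosynthesis genes among the 300 brightest -0.34, 0.09 and 0.18. For mature pollen it was 0.58, -0.08 and -0.52, for flavonoid genes 0.31, -0.44 and 0.08, and for cold response -0.77, 0.34 and 0.54. Photosynthesis and cold response were thus low, and pollen and flavonoid genes high, on the same array. Quantile normalisation left -0.27 for photosynthesis, 0.57 for pollen and -0.76 for cold response on array a, and left -0.04 for the members as a whole in place of -0.20.

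Nuclear members had shorter genes than the genome's named set. The median length of the annotated gene was 1654 bases over the 92 nuclear members, with quartiles of 1333 and 2090, and 2122 bases over 13367 nuclear genes with a single-gene probe set, with quartiles of 1414 and 3073. In 2 cases a pair of members were next to each other in the genome, AT2G27710 with AT2G27720 and atpB with atpE.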

How the data were processed

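Total RNA of wild-type Columbia flowers was read on 3 one-colour arrays. The deposited values are a linear signal intensity per probe set, as the authors gave them in their value table. How it was computed (software, background correction, scaling) is not given in the sources used here. That the trimmed mean is nearly the same on every array was computed from the values. The number of arrays limits the precision.

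Genes come from the platform annotation, updated through RefSeq (TAIR10.1) for 13436 of 13513 single-gene probe sets. The 64 control probe sets were left out. The 100 brightest by mean signal are the members. Named are the 30 brightest, the 10 largest and 10 smallest ratios among the 300 brightest, the brightest 3 of each class, and up to 4 genes of each list. Other genes were picked with their values known. The reference tables hold no gene descriptions, so text patterns for classes matched only 11 members, against 1.58% of all named probe sets, 6 of them in photosynthesis, 2 in glycolysis and 1 each in cytoskeleton, respiration and S-adenosylmethionine metabolism. Groups were therefore set by hand. The members and the 20 lists (247 genes, 58 measured) were chosen with earlier results of these data known. Clock and cold lists, symbol families and chloroplast units were added after the values were seen. Only 1 group is described, so no test was run. Alternatives were other rankings, quantile and median scaling, pseudocounts, filters, and each array left out. Scripts used Python 3.11.15, pandas 2.3.3 and numpy 2.4.6, and were tested on simulated data.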

Additional observations from a re-analysis of the deposited data

How the results depend on the processing

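No paired analysis was possible because only 1 group is described and no test was run. Of 154 alternative values, 141 stayed within 1 SD between the arrays or, for counts and shares of members, within 1.5 times the value reported, 11 moved and 2 changed sign. The members were kept in 93 to 100 of 100 cases under all 7 other rankings, and all 45 list percentiles stayed within their spread. That spread came from the same 3 arrays, so leaving 1 array out could hardly move a percentile beyond it. Averaging the probe sets of a gene left all these percentiles identical, so it was no separate check. The 100 members are of different genes, so taking the brightest probe set of each gene could not change their shares. Both alternatives are counted in the 141. The share of members matched by the photosynthesis pattern was 6%, and 3% of the 200 brightest. The median coefficient of variation of the members was 15.9%, with 8.73% after quantile normalisation and 9.64% to 21.4% when 1 array was left out. That of all probe sets above the filter was 16.5%, with 20.3% when no filter was set; it was 10.97% without replicate a and 15.3% without replicate b, the range over the arrays left out in turn. Their median SD of log2(signal + pseudocount) was 0.21 with a pseudocount of 16, 0.24 with 1 and 0.15 with 64. The members' median log2 difference of array a from the mean of b and c was -0.30, with -0.054 after quantile normalisation, -0.42 without replicate b and -0.18 without replicate c. That of the reference genes was -0.04, and changed sign to 0.062 after quantile normalisation, and it ran from -0.14 without replicate b to 0.11 without replicate c. The cause was not tested. This difference has no value without array a. Other moved values were those of tapetum, carpel and root genes. The number of arrays, 3, limits all spreads, and signals near the floor carry little information.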

Other observations

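Families that share a symbol were gathered after the values were seen and spanned most of the range of brightness. Of 14 sugar exporters of the SWEET family, 3 were among the 300 brightest: SWEET9, SWEET1 at 1575, 1368 and 1887 and SWEET4 at 1937, 989 and 1447 on arrays a, b and c. SWEET11, which loads sugar into the phloem, gave 897, 960.5 and 929.7, and SWEET8, which is needed for the pollen wall, 142, 96.3 and 163. SWEET16, a vacuolar transporter, was the dimmest at 14.2, 25.5 and 14.7. Of 29 serine carboxypeptidase-like genes, 3 were among the 300 brightest and the percentiles ran from 6.60 to 98.5. The brightest was scpl48 at 2039.9, 1914 and 2809, and the dimmest scpl22 at 2.3, 1.4 and 5.1.

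Of 40 AGAMOUS-like genes, which encode MADS-box transcription factors, 0 were among the 300 brightest and the median percentile was 15.4. AGL26 was the brightest at 229, 421 and 332, followed by AGL18 at 252, 201.5 and 193. The pollen factor AGL65 gave 89.2, 58.8 and 56.3, AGL66 gave 57.7, 37.3 and 27.5, and AGL104 gave 48, 27.1 and 19, each highest on array a. All of these pollen factors are also on the mature pollen list above. Of the 40 AGAMOUS-like genes 18 were highest on a, where 41.5% of the probe sets above the filter were. Of 11 genes for RALF-like signal peptides, RALFL34 was the brightest at 1245, 1392.5 and 1441, with little spread, whereas RALFL26 gave 1906, 1066 and 943 and RALFL25 1105, 538 and 373, both highest on array a. Of 7 tubulin genes, TUB5 gave 568, 689.5 and 969 and TUB1, the dimmest, 89.7, 64.9 and 69.8. Of 8 low-molecular-weight cysteine-rich genes, LCR72 gave 1429, 759 and 515, highest on a, and LCR68 gave 682, 741.5 and 823, lowest on a, while LCR67 was listed at 0.3, 0.7 and 2.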
